A study of Mus musculus with 8 samples.

Results

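Granins and the enzymes that mature peptide hormones were followed in CAD cells whose Pfn1 gene had been targeted with CRISPR/Cas9, against control CAD cells. The group was taken by name from the table of 23038 genes. It held 10 genes, and all 10 were found: the granins Chga, Chgb, Scg2, Scg3 and Vgf, the convertases Pcsk1 and Pcsk2, their binding partners Scg5 and Pcsk1n, and the carboxypeptidase Cpe. CAD (Cath.a differentiated) is a mouse catecholaminergic neuronal line, grown here undifferentiated in 8% FBS. The cells labelled PFN1 KO gave 4 libraries. The control cells also gave 4; their titles read wild type and their genotype field reads Control KO, and what those cells received is not given in the sources used here. Pfn1 encodes profilin 1, which binds actin monomers. The labels speak of biological replicates and do not say whether they were clones or cultures, so p-values measure the spread between these libraries.

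Granins are acidic proteins of the regulated secretory pathway. They aggregate in the trans-Golgi network, help to load dense-core vesicles with hormones, neuropeptides or catecholamines, and are themselves cut into peptides. In the vesicle, prohormone convertases cut precursors after pairs of basic residues, and carboxypeptidase E then trims the basic residues left at the new ends. Adrenal chromaffin cells and sympathetic neurons, the relatives of catecholaminergic lines, are known for high granin levels.

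The values are RPKM, reads scaled by the length of the gene and by the total of the library, so levels can be compared between genes. Depth, estimated from the steps between low values, was 26200000 to 34500000 reads per library. Pfn1 stood at 152, 130, 130 and 143 RPKM in PFN1 KO libraries 1 to 4, against 428, 399, 429 and 436 RPKM in control libraries 1 to 4 (log2 fold change -1.60, adjusted p = 3.7e-09, limma), so the transcript was lower but present. On a principal component with 14% of the variance, PFN1 KO library 1 lay at 11.5 and the other PFN1 KO libraries at -6.4 to 1.7, and among the controls library 4 was apart, at -11 with the rest at -0.3 to 5.1. At an adjusted p under 0.05 (limma), without these libraries 4415 genes were called higher and 1572 lower, against 3489 and 1772 with them. Markers of catecholaminergic neurons were present, with Hand2 at 225 and 208 RPKM, Phox2a at 130 and 144 RPKM and Dbh at 10.4 and 31.7 RPKM in PFN1 KO and control cells. Of the 12 catecholaminergic neuron markers 10 were tested, of which 4 were called higher (Ret, Gata2, Stmn2 and Slc18a1) and 4 lower (Dbh, Th, Phox2a and Gata3). Th, the rate-limiting enzyme of catecholamine synthesis, was at 0.773 and 2.25 RPKM and passed the filter on low values through the control cells alone, and the noradrenaline transporter gene Slc6a2 was listed at 0 in all 8 libraries. Markers of astrocytes, microglia and fibroblasts were low. The 5 astrocyte genes summed to 0.16 to 0.306 RPKM in PFN1 KO and 0.149 to 0.432 RPKM in control libraries, and the 5 microglia and macrophage genes to 0.17 to 0.627 and 0.224 to 0.501 RPKM. The 5 fibroblast genes summed to 2.73 to 3.22 and 2.74 to 3.48 RPKM, nearly all of it Dcn. Aqp4, Aldh1l1 and Col3a1 were listed at 0 in all 8 libraries. The part of other cells in the results was not tested. In bulk RNA, more or fewer cells that express a gene and more or less RNA per cell cannot be told apart.

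The members split into genes that were about 2-fold or 1.5-fold higher in PFN1 KO cells and genes that barely differed. Chgb, Scg2, Vgf and Scg5 were higher, Scg3 was slightly lower, and no difference was called for Chga, Pcsk1n or Cpe. Pcsk1 and Pcsk2 lay under the filter of a mean of 1 RPKM in at least 1 group and were not tested. Of the 8 members tested, 4 were called higher and 1 lower (limma on log2(RPKM + 1), Benjamini-Hochberg adjusted p under 0.05 over all 11465 tested genes). The comparison called 45.9% of all tested genes, 30.4% higher and 15.5% lower, so the number of calls sets these genes little apart, and the sizes of the changes are given below. After median-of-ratios scaling the calls over all genes were 2747 higher and 2723 lower, and the members' calls were again 4 higher and 1 lower. No PFN1 KO value fell among the control values for the 5 called members, which held for 41.4% of all tested genes. The median log2 fold change of the 8 tested members was 0.28, against 0.06 for all tested genes. In the authors' deposited table, which covers all 23038 genes, 6 of the 10 members and 27.2% of the genes have an adjusted p under 0.05. The sixth member is Pcsk2. The 27.2% counts in 4907 genes at 0 in every library, which could not be called, so it is lower than the share among genes with reads.

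In order of level, per length of gene, PFN1 KO cells had Chgb, Vgf and Scg2, then Cpe, Scg3 and Chga with means of 58.2, 57.9 and 57.0 RPKM that did not differ beyond their spread, then Scg5, Pcsk1n, Pcsk2 and Pcsk1. In control cells the order was Vgf, Chgb, Scg3, Chga, Cpe, Scg2, Scg5, Pcsk1n, Pcsk2 and Pcsk1. There Vgf and Chgb overlapped, as did Chga and Cpe, while every Scg3 value lay above those of Chga and Cpe.

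**Figure D1:**
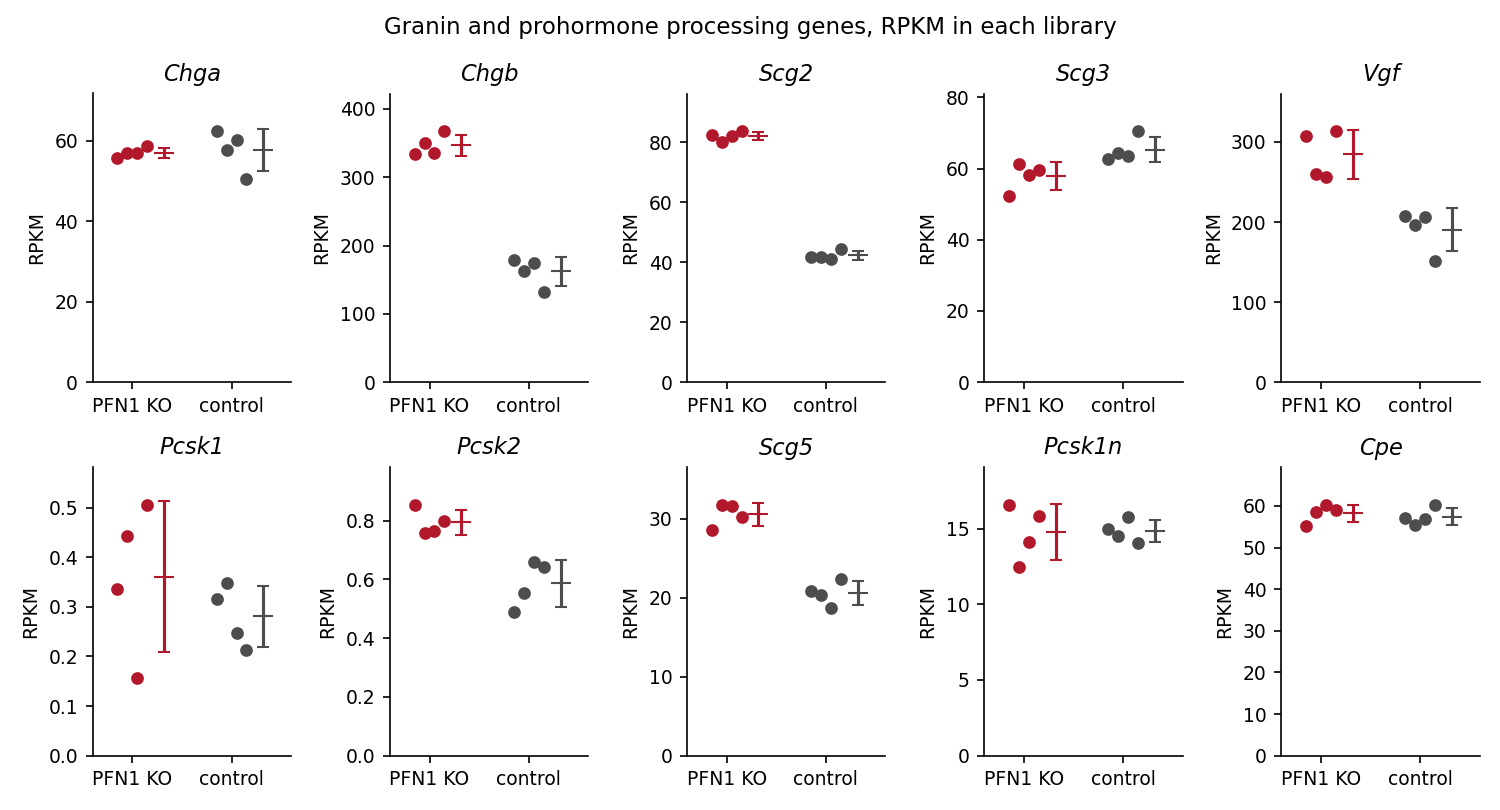
RPKM of the 10 genes in each library, PFN1 KO on the left (red) and control on the right (grey), 1 panel per gene with its own axis from 0. Points are libraries 1 to 4 from left to right, and the bars beside them are the mean ± SD (n = 4). Chgb, Scg2, Vgf, Scg5 and Pcsk2 separate upward in PFN1 KO cells, Scg3 downward, and Chga, Pcsk1, Pcsk1n and Cpe overlap.

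Chgb, which encodes chromogranin B, a granin that promotes granule formation, had the highest level of the group in PFN1 KO cells. It stood at 334, 350, 335 and 367 RPKM in PFN1 KO libraries 1 to 4, against 179, 163, 174 and 133 RPKM in control libraries 1 to 4. Every PFN1 KO value lay above the highest control value, and control library 4 was the lowest of all. The mean was 2.14-fold higher (347 ± 15.5 against 162 ± 20.7 RPKM, SD, n = 4 each; log2 fold change 1.10, SE 0.078, adjusted p = 1.35e-06, limma). In order of mean RPKM over the whole table, Chgb lay at place 84 in PFN1 KO and 276 in control cells, and 40 tested genes had a larger log2 fold change.

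Scg2 encodes secretogranin II, the precursor of the peptide secretoneurin. Its level was 82.5, 80.1, 81.9 and 83.6 RPKM in PFN1 KO libraries 1 to 4, against 41.9, 41.7, 41.0 and 44.4 RPKM in control libraries 1 to 4. The libraries of each group lay within a few RPKM of each other. The mean was 1.94-fold higher (82.0 ± 1.47 against 42.3 ± 1.50 RPKM, SD, n = 4 each), with a log2 fold change of 0.94 and an SE of 0.037, the smallest SE among the tested members (adjusted p = 1.12e-08, limma). Of the other 619 tested genes of chromosome 1, 1 had a larger log2 fold change.

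Chgb and Scg2 are shown with their promoters because they changed most and by a similar factor. Chga, whose level was nearly equal in both groups, is set beside them. The sequences are from RefSeq on GRCm38.p6, 250 bases before to 50 after the annotated start, and run 5′ to 3′ on the strand of the gene. Capitals mark TGACG, the core of the cAMP response element to which CREB binds, or the full element TGACGTCA, which contains it on both strands. Chgb lies at chr2:132781392-132781691 on the + strand, Scg2 at chr1:79439977-79440276 on the - strand and Chga at chr12:102554691-102554990 on the + strand.
Chgb: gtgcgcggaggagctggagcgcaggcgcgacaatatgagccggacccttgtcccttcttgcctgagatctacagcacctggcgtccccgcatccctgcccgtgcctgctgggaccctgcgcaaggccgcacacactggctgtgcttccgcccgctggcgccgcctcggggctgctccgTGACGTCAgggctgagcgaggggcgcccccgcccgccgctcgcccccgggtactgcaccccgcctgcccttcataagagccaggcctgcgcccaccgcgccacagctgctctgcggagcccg
Scg2: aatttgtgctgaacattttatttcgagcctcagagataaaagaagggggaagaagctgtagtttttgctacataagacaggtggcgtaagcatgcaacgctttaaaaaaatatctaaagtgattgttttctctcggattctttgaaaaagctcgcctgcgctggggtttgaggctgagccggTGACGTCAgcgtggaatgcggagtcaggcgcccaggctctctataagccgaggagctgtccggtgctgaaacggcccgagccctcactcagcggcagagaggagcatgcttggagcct
Chga: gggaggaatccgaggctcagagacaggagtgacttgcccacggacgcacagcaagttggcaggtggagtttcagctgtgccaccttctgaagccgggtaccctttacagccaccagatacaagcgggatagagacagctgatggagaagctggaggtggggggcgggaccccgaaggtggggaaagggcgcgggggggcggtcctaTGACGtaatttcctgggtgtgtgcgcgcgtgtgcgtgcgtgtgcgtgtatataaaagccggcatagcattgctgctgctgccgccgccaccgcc

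Counted from the start, the full element begins at base -72 in Chgb and at base -68 in Scg2. Chga holds the core without the full element, beginning at base -44. The letters there run TGACGTAA, against TGACGTCA in the full element. Whether TGACGTAA also serves as a cAMP response element was not tested, so Chga is not shown to lack one. The base numbers in Chga rest on its annotated start. Promoters of 8 of the 10 members were matched, Vgf and Cpe being the others, and 3 of the 8 held TGACGTCA: Chgb, Scg2 and Pcsk1, where it begins at base -78. Over all 32851 promoters of the table, 1.79% held TGACGTCA. TGACG on either strand was in 7 of the 8 member promoters and in 20.8% of all, with Pcsk1n the member without it. The letters TATAAA, those of a TATA box, were in 1 of the 8, Chga, at base 6 after the annotated start, which is not where a TATA box for that start would lie, and in 13.6% of all. The GC box GGGCGG, to which Sp1 binds, was in 6 of the 8, Scg2 and Scg3 being the exceptions, and in 35.7% of all. Both of these were also searched on both strands. Such matches describe letters in this window and do not show that a factor was bound.

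Vgf, a granin-like precursor that is induced by nerve growth factor, was at 308, 261, 256 and 314 RPKM in PFN1 KO libraries 1 to 4, against 208, 197, 206 and 152 RPKM in control libraries 1 to 4. The groups did not overlap, but both were wide: PFN1 KO libraries 1 and 4 were higher than 2 and 3, and control library 4 was well under the other controls. The mean was 1.49-fold higher (284 ± 30.6 against 191 ± 26.4 RPKM, SD, n = 4 each; log2 fold change 0.58, SE 0.098, adjusted p = 0.00062, limma). Without control library 4 and PFN1 KO library 1 the log2 fold change of Vgf was 0.43 (adjusted p = 0.00067), and that of Chgb 1.02 (adjusted p = 5.26e-07, limma).

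Chga encodes chromogranin A, the founding granin and the common serum marker of neuroendocrine tumours. It had 55.6, 56.8, 56.9 and 58.6 RPKM in PFN1 KO libraries 1 to 4, against 62.4, 57.8, 60.0 and 50.4 RPKM in control libraries 1 to 4. The PFN1 KO values all lay inside the range of the controls. The log2 fold change was -0.01 with a 95% confidence interval of -0.14 to 0.11 (adjusted p = 0.874, limma), or -9.09% to 8.10% on the log2(RPKM + 1) scale.

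Scg3, whose product secretogranin III binds chromogranin A and the cholesterol-rich membrane of the granule, was at 52.4, 61.2, 58.3 and 59.7 RPKM in PFN1 KO libraries 1 to 4, against 62.7, 64.5, 63.6 and 70.5 RPKM in control libraries 1 to 4. The groups were separated by a narrow gap between PFN1 KO library 2 and control library 1. The mean fell to 88.7% of control (57.9 ± 3.84 against 65.3 ± 3.54 RPKM, SD, n = 4 each; log2 fold change -0.17, SE 0.053, adjusted p = 0.0209, limma). This call was lost without control library 4, the highest control (log2 fold change -0.14, adjusted p = 0.0505), and the log2 fold change was -0.09 without that library and PFN1 KO library 1 (adjusted p = 0.0457).

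The make-up of the granin transcripts differed between the groups. The RPKM of the 5 granins summed to 833, 809, 788 and 883 in PFN1 KO libraries 1 to 4, against 554, 524, 545 and 450 in control libraries 1 to 4, 1.60-fold more on average. Chgb made up 41.9 ± 1.35% of that sum in PFN1 KO and 31.2 ± 1.25% in control libraries (SD, n = 4 each). Chga made up 6.89 ± 0.283% and 11.1 ± 0.127%, and Scg3 7.01 ± 0.588% and 12.8 ± 2.00%. The share of Vgf overlapped between the groups, at 32.2 to 37.0% in PFN1 KO and 33.7 to 37.8% in control libraries, and so did that of Scg2, at 9.47 to 10.4% and 7.53 to 9.88%. The ratio of Chgb to Chga was 5.89 to 6.27 in PFN1 KO and 2.63 to 2.90 in control libraries, which is narrower within each group than the levels of Chgb. These shares and ratios restate the levels above and were given no test.

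**Figure D2:**
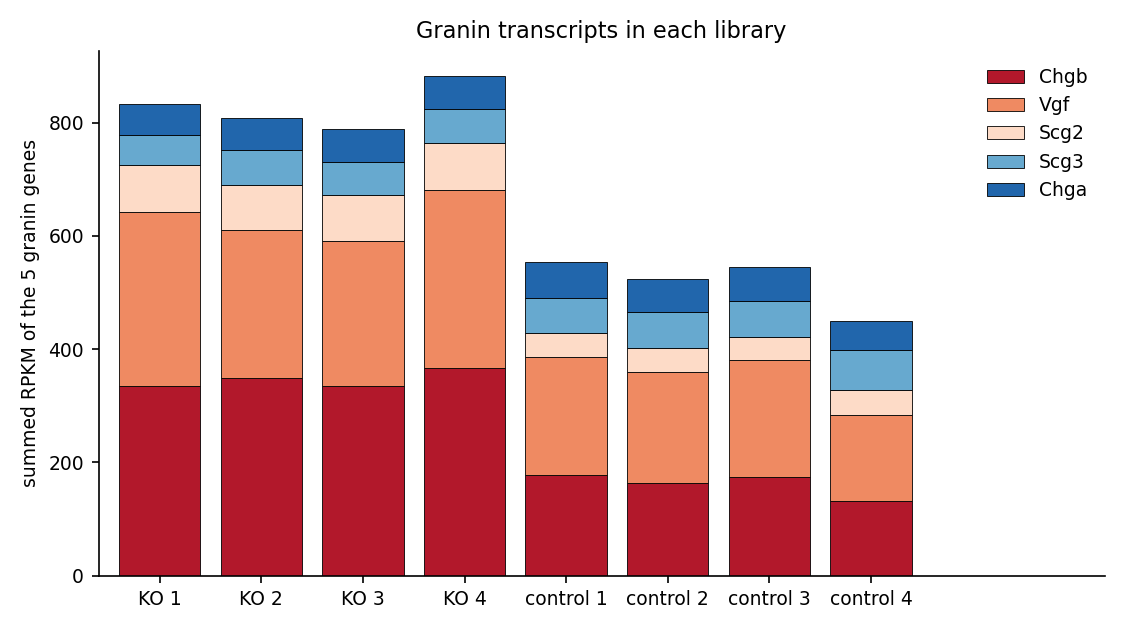
Summed RPKM of the 5 granin genes in each library, PFN1 KO libraries on the left and control libraries on the right, stacked by gene. PFN1 KO bars reach 788 to 883 RPKM and control bars 450 to 554 RPKM, with most of the difference in Chgb and Vgf.

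Both neuroendocrine convertases were scarce. Pcsk1, which makes the first cuts in many prohormones, had 0.336, 0.443, 0.158 and 0.506 RPKM in PFN1 KO libraries 1 to 4, against 0.315, 0.348, 0.248 and 0.212 RPKM in control libraries 1 to 4. At about 32 reads per library these values are coarse, and the groups overlapped. Pcsk2, which cuts further to smaller peptides, had 0.855, 0.759, 0.766 and 0.797 RPKM in PFN1 KO libraries, against 0.489, 0.555, 0.661 and 0.641 RPKM in control libraries, from about 169 reads per library. The Pcsk2 groups did not overlap, and the mean was 1.35-fold higher. With no filter on low values, Pcsk2 had an adjusted p of 0.0135 and Pcsk1 one of 0.488 (limma); the authors' deposited table gives Pcsk2 a log2 fold change of 0.45 with an adjusted p of 0.000803. In GENCODE M21 the antisense genes Pcsk2os1 and Pcsk2os2 overlap Pcsk2. They stood at 0.179 to 0.282 and 0.118 to 0.162 RPKM in PFN1 KO, and at 0.104 to 0.207 and 0.0774 to 0.174 RPKM in control libraries. The library kit keeps strand, but whether the counting used it is not given, which leaves the level of Pcsk2 uncertain.

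Scg5 encodes a chaperone that carries proPcsk2 out of the endoplasmic reticulum and holds it inactive on the way. It was at 28.5, 31.8, 31.6 and 30.2 RPKM in PFN1 KO libraries 1 to 4, against 20.9, 20.4, 18.7 and 22.4 RPKM in control libraries 1 to 4, with clear space between the groups. The mean was 1.48-fold higher (30.5 ± 1.51 against 20.6 ± 1.50 RPKM, SD, n = 4 each; log2 fold change 0.55, SE 0.056, adjusted p = 1.85e-05, limma). Without control library 4 and PFN1 KO library 1 the log2 fold change of Scg5 was 0.62 (adjusted p = 1.2e-05). Scg5 transcript exceeded that of its client Pcsk2 by 33.4 to 41.9 times in PFN1 KO and 28.4 to 42.6 times in control libraries, so this ratio overlapped between the groups. Pcsk1n encodes proSAAS, an inhibitor of the Pcsk1 product. It was at 16.6, 12.5, 14.1 and 15.9 RPKM in PFN1 KO libraries, against 15.0, 14.5, 15.8 and 14.0 RPKM in control libraries. PFN1 KO library 2 was the lowest of all and library 1 the highest, and the log2 fold change was -0.01 (95% confidence interval -0.18 to 0.15, adjusted p = 0.905, limma). Eras overlaps Pcsk1n on the opposite strand and reached at most 0.0616 RPKM in PFN1 KO and 0.0273 RPKM in control libraries.

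Cpe encodes carboxypeptidase E, which also serves as a sorting receptor at the Golgi. It was at 55.3, 58.5, 60.2 and 59.0 RPKM in PFN1 KO libraries, against 57.1, 55.4, 56.8 and 60.3 RPKM in control libraries. The groups covered the same range. The log2 fold change was 0.02 with a 95% confidence interval of -0.07 to 0.11 (adjusted p = 0.709, limma), or -4.61% to 7.79% on the log2(RPKM + 1) scale.

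**Figure D3:**
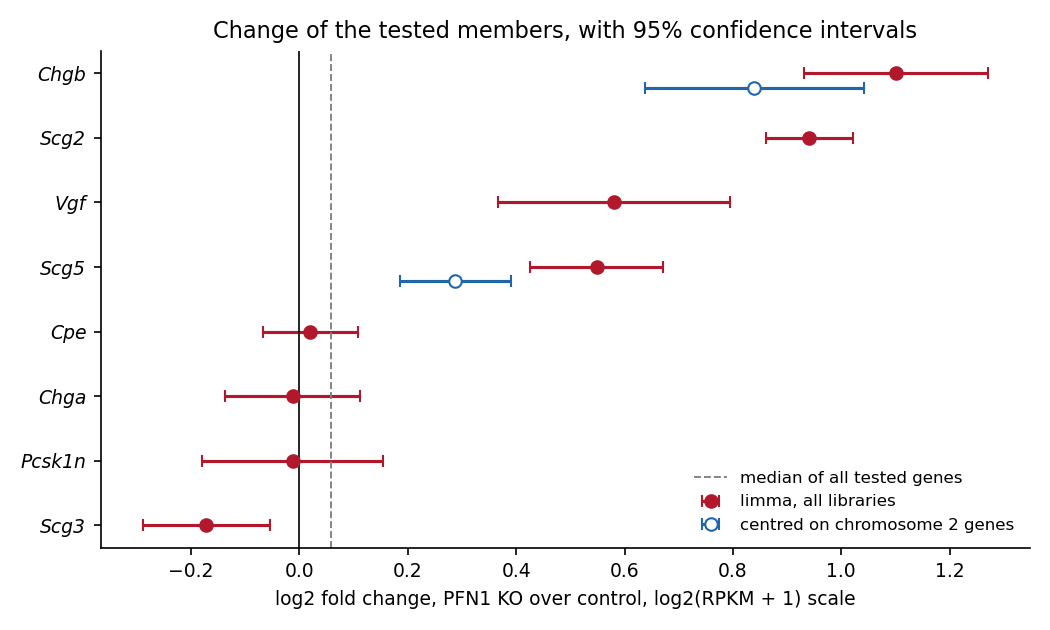
Log2 fold change of the 8 tested members, PFN1 KO over control, with 95% confidence intervals from limma (filled) and, for the members on chromosome 2, after centring on the genes of that chromosome (open). The dashed line is the median of all tested genes. Chgb and Scg2 lie near 1, Vgf and Scg5 near 0.5, and the intervals of Cpe, Chga and Pcsk1n span 0.

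Chgb, Scg5 and Pcsk2 lie on chromosome 2, whose genes were shifted upward as a whole in these libraries. The median log2 fold change was 0.26 over the 947 tested genes of chromosome 2 and 0.04 over those of the other chromosomes, and 649 genes of chromosome 2, or 68.5%, were called higher. Scg5 and Chgb were therefore also set against their own chromosome. With each library centred on the tested genes of chromosome 2, the log2 fold change of Chgb was 0.84 (SE 0.092, adjusted p = 1.55e-05) and that of Scg5 was 0.29 (SE 0.046, adjusted p = 0.000248, limma). The smaller value of Scg5 is 1.22-fold, against 1.46-fold on the same scale before centring. Among the tested genes of chromosome 2, 6 had a larger log2 fold change than Chgb and 92 a larger one than Scg5. Relative to the other tested genes of chromosome 2, the log2 level of Chgb was 4.75 ± 0.044 in PFN1 KO and 3.91 ± 0.233 in control libraries (SD, n = 4 each; exact permutation test, two-sided, p = 0.0286, the smallest that 4 against 4 libraries can give). For Scg5 it was 1.29 ± 0.054 and 1.00 ± 0.073, with the same exact p of 0.0286. The same shift was seen in most neighbours close by. Of the 10 tested genes nearest to Chgb, 8 were called higher and 1 lower. Their log2 fold changes ran from -0.29 to 0.67, with a median of 0.29. Of the 10 nearest to Scg5, 7 were called higher and none lower, with a median of 0.34 and the highest at 0.43.

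Scg2 and Vgf lie elsewhere, on chromosomes 1 and 5. Of the 10 tested genes nearest to Scg2 none was called higher and 3 were called lower, with log2 fold changes from -0.87 to 0.18. Of the 10 nearest to Vgf, 5 were called higher and none lower, with a median log2 fold change of 0.17 and the highest at 0.38. The shares over all tested genes were 30.4% higher and 15.5% lower. Why the genes of chromosome 2 moved together was not tested.

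**Figure D4:**
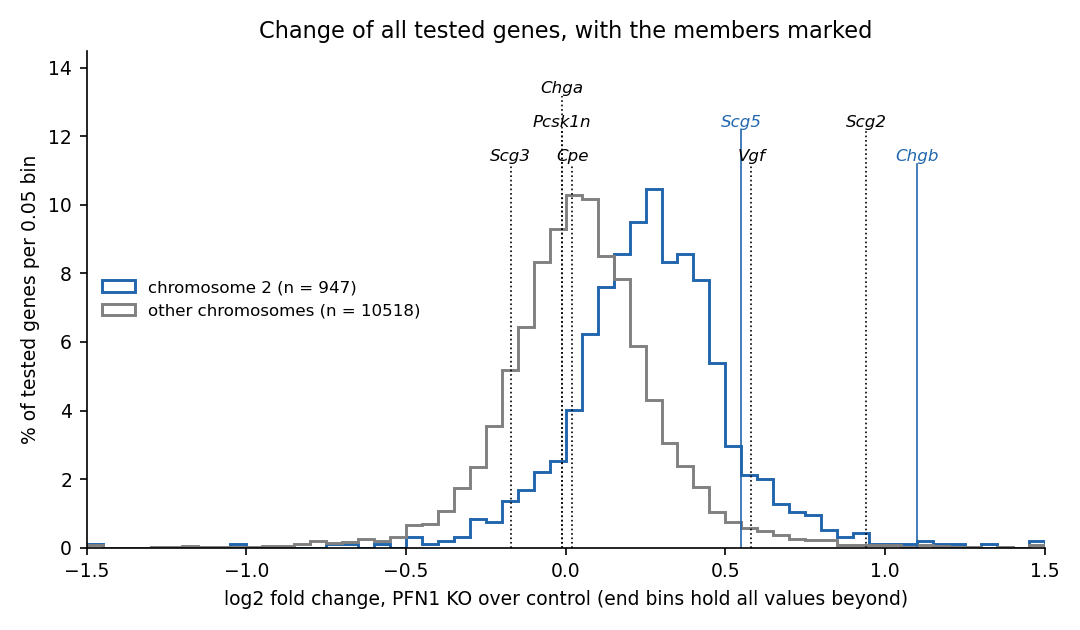
Distribution of the log2 fold change over the 947 tested genes of chromosome 2 (blue) and over the tested genes of all other chromosomes (grey), as the percentage of genes in each bin, with the 8 tested members marked (blue lines for members on chromosome 2). Chgb and Scg2 lie far in the upper tail, and Scg5 above the bulk of chromosome 2.

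Within the groups the members did not all deviate the same way. Control library 4 was the lowest control for Chgb, Vgf, Chga and Pcsk1n, with deviations from the control mean of -0.279, -0.317, -0.185 and -0.0728 on the log2(RPKM + 1) scale. It was the highest control for Scg2, Scg3, Scg5 and Cpe, with deviations of 0.0713, 0.110, 0.118 and 0.0707. PFN1 KO library 1, which also stood apart, was the lowest of its group for Chga, Scg3, Scg5, Cpe and Chgb, and the second highest for Vgf.

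The rest of the pathway was read from gene lists in the same fit. Of 7 other proprotein convertases 4 were tested, of which 2 fell and 1 rose, against 15.5% lower and 30.4% higher of all tested genes. Furin, the convertase of the constitutive pathway, fell to 33.5 ± 1.00 RPKM in PFN1 KO cells, against 42.1 ± 1.31 RPKM in control cells (SD, n = 4 each; log2 fold change -0.32). Pcsk6, which processes growth factors of the TGF-beta family, fell to 18.5 ± 0.75 RPKM, against 26.2 ± 1.10 RPKM (log2 fold change -0.48). Mbtps1, a convertase of the Golgi that activates SREBP, was at 41.2 ± 0.961 and 43.4 ± 1.75 RPKM; it was not called, but was called lower under all 3 other scalings. Pcsk7 rose (log2 fold change 0.19, adjusted p = 0.0445), a call lost with no filter, under all 3 other scalings and without PFN1 KO library 1, 3 or 4 or control library 2 or 3. Furin thus exceeded Pcsk2 by 37.6 to 45.5 times in PFN1 KO and by 62.6 to 87.0 times in control libraries, per length of gene.

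Of 10 further enzymes that trim or modify peptides 6 were tested, of which 3 rose and 1 fell. Over all tested genes, 30.4% were called higher and 15.5% lower. The median log2 fold change of these 6 enzymes was 0.11, against 0.06 for all tested genes. Ctsl, which encodes cathepsin L and can also process proneuropeptides, rose to 114 ± 3.83 RPKM in PFN1 KO cells, against 65.4 ± 3.44 RPKM in control cells (SD, n = 4 each; log2 fold change 0.80, adjusted p = 1.55e-07, limma). Cpxm1, a carboxypeptidase-like gene on chromosome 2, rose 1.42-fold. Pam, the enzyme that amidates the ends of peptides, rose 1.14-fold. Cpd, the carboxypeptidase of the constitutive pathway, fell to 80.3% of control. The ratio of Cpe to Cpd was 3.70 to 3.98 in PFN1 KO and 2.93 to 3.10 in control libraries.

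Of 25 tested genes for the biogenesis of dense-core vesicles 9 rose and 1 fell, with a median log2 fold change of 0.07, against 30.4% higher and 15.5% lower of all tested genes. It had 8 genes higher and 2 lower after median-of-ratios scaling, and the counts set this list little apart. Syt4, a synaptotagmin of maturing granules, rose 1.38-fold, and Ptprn, a phosphatase-like protein of the granule membrane, rose to 59.4 ± 1.34 RPKM in PFN1 KO cells, against 43.6 ± 0.88 RPKM in control cells (log2 fold change 0.44, adjusted p = 3.31e-06, limma). Pick1, which bends the membrane of budding granules, rose 1.33-fold, and Atp6ap2, an accessory subunit of the proton pump, fell to 87.1% of control. The call of Atp6ap2 was lost without control library 2, control library 4 or PFN1 KO library 4.

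Of 15 tested genes for the granule membrane and release 6 rose and 1 fell, with a median log2 fold change of 0.14, again close to the 30.4% higher and 15.5% lower of all tested genes. Snap25, a SNARE on chromosome 2, rose to 76.5 ± 2.86 RPKM in PFN1 KO cells, against 50.4 ± 2.60 RPKM in control cells (SD, n = 4 each; log2 fold change 0.59, adjusted p = 2.16e-06, limma). Unc13a, which primes vesicles, rose 1.37-fold and Slc18a1, the vesicular monoamine transporter of chromaffin cells, 1.29-fold. Rph3al, a Rab effector, fell to 70.2% of control. With median-of-ratios scaling 4 genes of this list rose and 2 fell.

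Few peptide precursors passed the filter. Of 22 listed 6 were tested, of which 2 rose, Vip 4.31-fold and Cartpt 1.74-fold. Another 2 fell, the secretin gene Sct to 49.1% and Adm to 57.9% of control. Over all tested genes, 30.4% were called higher and 15.5% lower. The median log2 fold change of these 6 precursors was 0.07, against 0.06 for all tested genes. The call of Adm was lost without PFN1 KO library 2 or 4, and without control library 4 it lay under the filter. Adm, at 0.594 and 1.03 RPKM in PFN1 KO and control cells, passed that filter through the control cells alone, so its place among the genes that fell is tied to the filter. Npy, at 46.2 ± 1.84 and 43.5 ± 4.44 RPKM in PFN1 KO and control cells (SD, n = 4 each), was the precursor with the highest level and was not called. Sst, Penk, Pdyn, Tac1 and Cck were listed at 0 in all 8 libraries.

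Of 17 tested transcription factors and cofactors known to act on granin genes 2 rose and 2 fell. Over all tested genes, 30.4% were called higher and 15.5% lower. The list had a median log2 fold change of 0.06, and so had all tested genes. Rest, the repressor of neuronal genes that acts on Chga, Scg2 and Vgf, was at 4.79 ± 0.583 RPKM in PFN1 KO and 4.63 ± 0.470 RPKM in control cells (SD, n = 4 each; adjusted p = 0.718, limma). Creb1 was at 7.90 ± 0.871 and 8.47 ± 0.370 RPKM (adjusted p = 0.293). Jun and Jund rose 1.33-fold and 1.29-fold, while Fos and Egr1 fell to 77.2% and 80.1% of control. With median-of-ratios scaling 2 genes of this list rose and 4 fell, and without control library 4 and PFN1 KO library 1 there were 5 that rose, Rest among them (log2 fold change 0.16, adjusted p = 0.0448, limma).

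**Figure D5:**
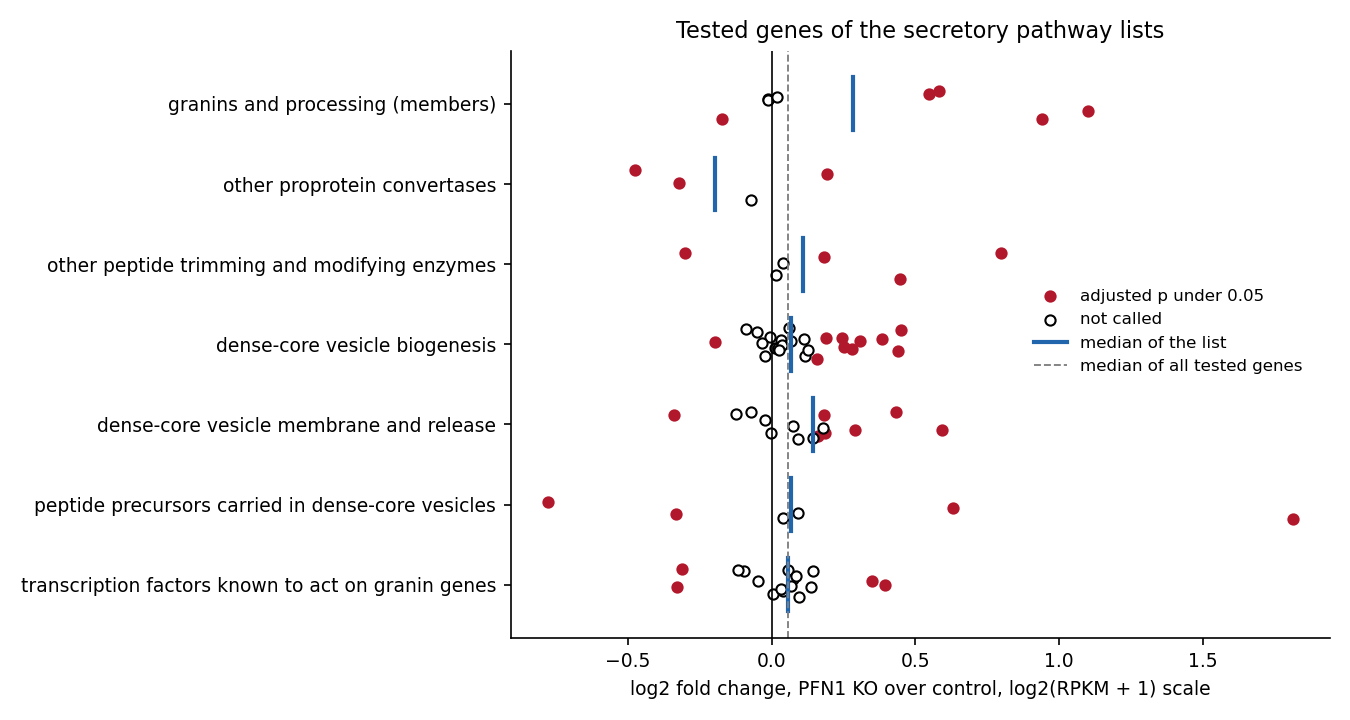
Log2 fold change of each tested gene, PFN1 KO over control, for the members and 6 lists of the secretory pathway; filled points have an adjusted p under 0.05 (limma), the thick line is the median of a list and the dashed line that of all tested genes. The members reach 1.10, further up than the genes of every other list except Vip.

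Profiles close to those of the called members were sought among the 8169 tested genes whose mean reached 5 RPKM, as the root mean square distance between log2(RPKM + 1) profiles centred on their mean over the 8 libraries. Among the genes near to Chgb were Wnt11 and Frk at 0.126 and 0.139. Sipa1l1, Map3k5 and Cdk5r2 lay nearest to Scg2 at 0.0525, 0.0532 and 0.0549. Nearest to Scg5 were Fam13b and Ssr4 at 0.043 each and Snap25 at 0.0449. For Vgf the nearest was 4930404N11Rik at 0.0760, closer than the genes named for Chgb and further than those named for Scg2, Scg5 and Scg3. For Scg3 the nearest were Ttc37, Ube2g1 and Tbpl1 at 0.0216 to 0.0222. All libraries enter these distances, so the difference between the groups makes up most of each profile.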

How the data were processed

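RNA-seq of 4 PFN1 KO and 4 control CAD libraries was analysed from the authors' deposited table of RPKM values. Libraries were stranded and made after ribosomal RNA was removed, per the labels' protocols. Tools named in the submitters' processing notes are TopHat, Bowtie, RSEM, CASAVA and, in no stated role for the authors' values, edgeR; the build named there is human (hg19), although the table holds mouse genes, so the build behind the values is not known. The deposited table also holds the authors' log2 fold change and mean log2 CPM, and the authors' p-value and adjusted p-value. Of its gene numbers, 22959 matched RefSeq on GRCm38.p6, used for names, chromosomes, gene order and promoters.

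Genes reaching a mean of 1 RPKM in a group were tested with limma 3.58.1 (R 4.3.3) on log2(RPKM + 1), trended prior, group as the only term, two-sided, Benjamini-Hochberg over all tested genes. These log2 fold changes understate changes of low genes. The fit was tested on simulated reads. Depth was estimated in Python 3.11.15 from the commonest ratio of low values between libraries and the authors' mean log2 CPM of genes without reads, taking a prior count of 2. Of 1046 low genes, 98.9% then held whole reads within 0.05 of a read; the unit was chosen per gene, which favours a match.

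The members and lists were chosen with earlier results of these data known. Genes named from a list are the called ones that changed most, at most 3 in each direction; Mbtps1, Npy, Rest and Creb1 were named beside them after their values were seen. The neighbouring genes and the granin shares and ratios were chosen after seeing the data. No p was adjusted over the members alone, although that had been planned for the comparison with the own chromosome. Replicate numbers did not pair the libraries. Some genes of the marker lists and of the search for like profiles are not reported here.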

Additional observations from a re-analysis of the deposited data

Results flagged for a closer look

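In groups of 4 libraries, a library was marked when its gap to the nearest other relative to the range of its group exceeded Dixon's 95% critical value. Of 68 groups, for the members, Pfn1 and the genes named from lists, 4 were marked, and chance marks about 1 in 20. None was a member or Pfn1. Pick1 in PFN1 KO library 2 stood at 17.08 RPKM, with the other PFN1 KO libraries at 16.54 to 16.6. Fos in control library 1 stood at 7.461 RPKM, with the other controls at 8.164 to 8.256. Egr1 in control library 4 stood at 26.88 RPKM, with the others at 25.19 to 25.46. Jun in control library 2 stood at 23.69 RPKM, with the others at 22.16 to 22.27.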

How the results depend on the processing

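The 4 increases (Chgb, Scg2, Vgf and Scg5) were called in each of the alternatives run for the members, with log2 fold changes of 1.008 to 1.15, 0.9273 to 0.9649, 0.4753 to 0.6298 and 0.5065 to 0.5879 when 1 library was left out. With no filter on low values 5 members were called higher, the fifth being Pcsk2. The number of members called lower was 0 to 1 when 1 library was left out, being 0 without control library 4, where Scg3 lost its call. Chga, Pcsk1n and Cpe were called in none; their signs turned with the setting. Median-of-ratios scaling moved the median of all tested genes by under 0.1, to 0.002, and gave 2747 genes higher and 2723 lower over all genes, against 3489 and 1772 without it, so the balance of directions across genes depends on the scaling while the calls of the members did not. The replicate block gave 5205 calls over all genes, against 5261 without it, and changed no call of a member; same-numbered libraries had correlations of -0.192 to 0.176. The comparison with the own chromosome had an exact permutation p under 0.05 for 4 of the 8 tested members, Chgb, Scg2, Scg5 and Vgf. Such a p is reached only where the groups do not overlap, which before centring held for 41.4% of all tested genes. The share of all tested genes after centring was not computed. Centred on all other chromosomes instead, 5 members had such a p. When 1 library was left out, the differences of Chgb, Scg2, Scg5 and Vgf from their own chromosomes were 0.7284 to 0.8983, 0.8619 to 0.893, 0.2556 to 0.3086 and 0.3475 to 0.5317. Pcsk1, at about 32 reads per library, is limited by depth; Pcsk2 was kept from the test by the filter.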
